A study of Mus musculus with 4 samples.

Results

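The 34 genes described here encode nucleolar proteins of ribosome biogenesis, together with *Myc*, which encodes a transcription factor known to regulate many of them. They were chosen by gene symbol from a list made by hand. This list and the other gene lists used below were made with earlier results of these data known. Counts over them are therefore a description and not an independent test. All 34 were found among the 24346 symbols of the expression files, and all 34 passed the filter on low values that left 15896 genes for testing. Dorsal skin was measured by RNA sequencing in 4 libraries from male C57BL/6 mice, which were 8 weeks old when the diet began. Cont-IMQ (replicates 1 and 2) was skin of mice on the NASH diet, a diet rich in fat, cholesterol, sucrose and bile salt that induces steatohepatitis. 7KC-IMQ (replicates 1 and 2) was skin of mice on that diet with added 7-ketocholesterol (7KC), an oxidized form of cholesterol. Both groups received their diet for 3 weeks and then imiquimod (IMQ) cream on the back for 1 day, which induces psoriasis-like dermatitis. The comparison therefore asks how skin treated with IMQ differed between the diets with and without 7KC. No vehicle-treated skin is part of it, so the response to IMQ itself was not measured. The labels do not say whether a library came from 1 mouse or from pooled skin, so p-values measure only the spread between these libraries.

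The nucleolus is the part of the nucleus where ribosomes are made. RNA polymerase I copies the ribosomal DNA into a long precursor, small nucleolar ribonucleoproteins (snoRNPs) modify it, and a large set of assembly factors cuts and folds it into the small and the large ribosomal subunit. Cells that grow and divide, such as keratinocytes of activated epidermis, need more ribosomes, and the genes of this process are known to be expressed together.

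The expression values were FPKM as deposited for each library, that is, sequenced fragments scaled to the length of the transcript and to the depth of the library. Because of the scaling to length, levels can be compared between genes. Depth was estimated from the steps of low values and was between 14960000 and 16200000 reads per library. For the 34 genes, the lowest estimated number of reads in any library was 393 (*Wdr12*), with a median over genes of 869, which corresponds to a counting error of 3.39%. Markers of epidermis (*Krt5*, *Krt14*, *Krt1*, *Krt10* and *Lor*) and of dermis (*Col1a1*, *Col1a2* and *Col3a1*) were present in every library. The Cont-IMQ libraries stood far apart in hair follicle markers, replicate 1 being the lowest and replicate 2 the highest of all. The summed level over 17 genes was 137 and 1673 FPKM in Cont-IMQ replicates 1 and 2. It was 498 and 441 FPKM in 7KC-IMQ replicates 1 and 2.

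Of the 34 genes, 33 had both 7KC-IMQ values above both Cont-IMQ values, and only *Myc* overlapped. Among all 15896 genes tested, 23.9% were separated in this direction. Among the 8636 tested genes with a mean FPKM between that of *Utp20* (6.32 FPKM, the lowest of the 34) and that of *Npm1* (497 FPKM, the highest), the share was 30.7%. The mean of log2(FPKM + 1) was higher in the 7KC-IMQ group in 34 of 34 genes, against 48.7% of all genes tested. Without *Myc*, the mean FPKM was higher by 12.4% (*Pes1*) to 41.3% (*Nop2*), and the median over the 34 genes was 24.1%. On the log2(FPKM + 1) scale, which slightly understates the change of low genes, the median difference was 0.30, while the median over all genes tested was -0.0056. In bulk skin, a higher number of cells that express a gene cannot be told apart from more RNA per cell.

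**Figure D1:**
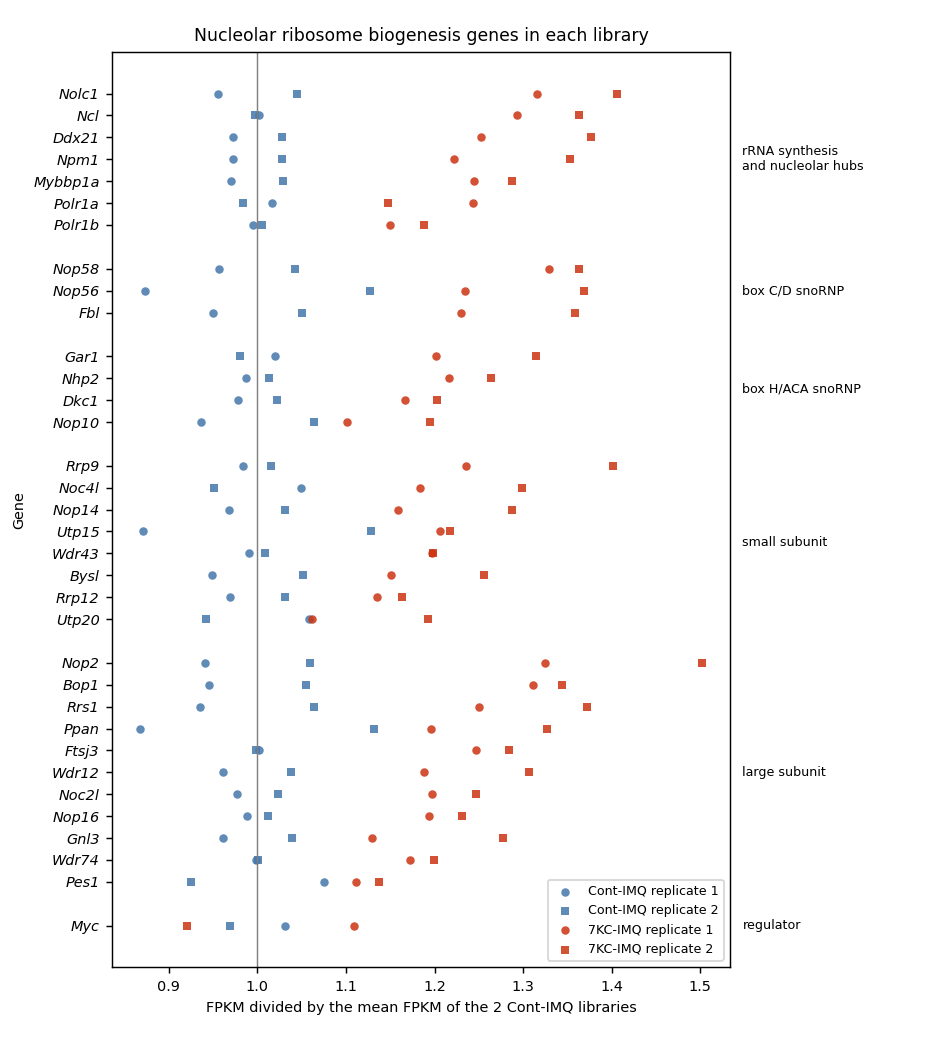
FPKM of each of the 34 genes in the 4 libraries (points), divided by the mean FPKM of the 2 Cont-IMQ libraries, with genes grouped by role. In 33 genes both 7KC-IMQ points lie to the right of both Cont-IMQ points, and *Myc* is the exception.

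In limma, none of the 34 genes passed an adjusted p-value of 0.05, where 1 of all genes tested did (0.00629%). The adjusted p-values of the 34 genes ranged from 0.352 to 0.968. At an unadjusted p-value under 0.05, 24 of the 34 genes were higher and 0 lower, compared with 7.50% of all genes in the upward and 5.47% in the downward direction. The spread between replicates was small, with a median SD within groups of 0.080 over the 34 genes on the log2(FPKM + 1) scale. An SD from 2 libraries a group is itself imprecise. With 2 libraries a group, the smallest two-sided p-value of an exact permutation test is 0.333, so no single gene could pass by it.

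**Figure D2:**
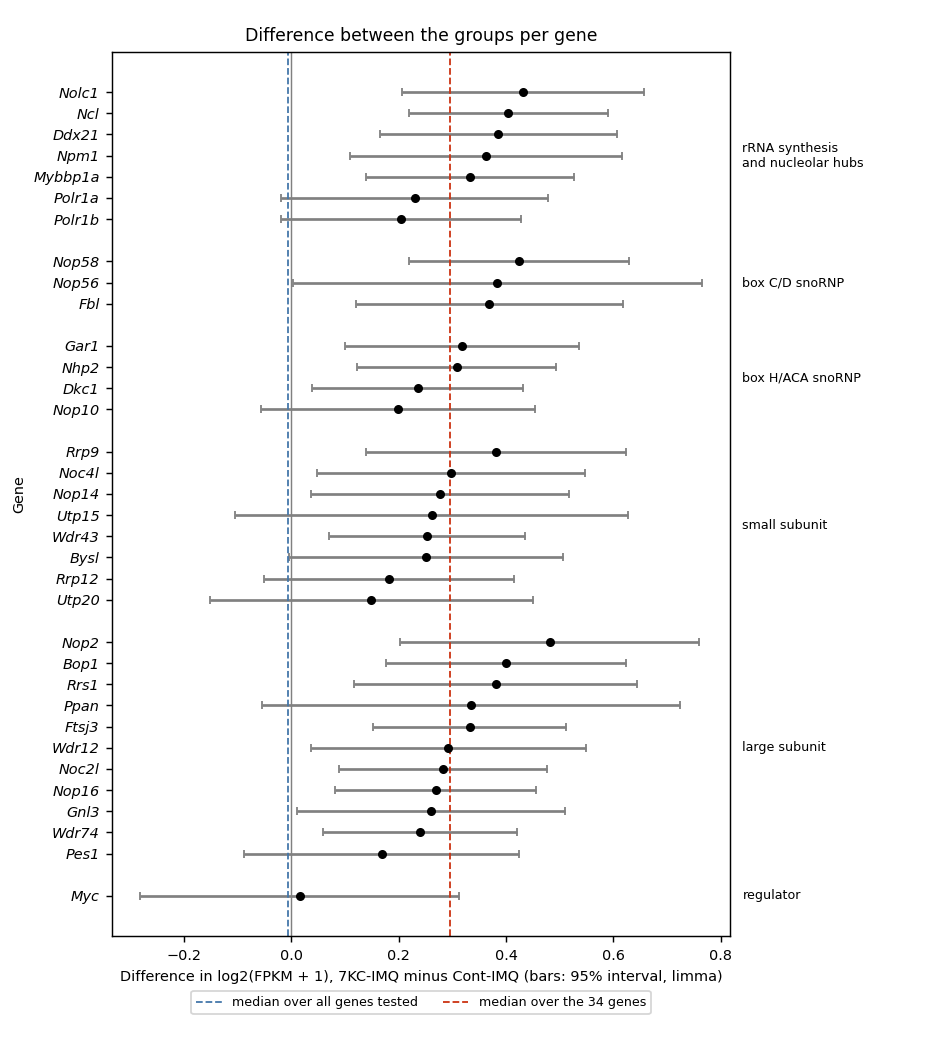
Difference in log2(FPKM + 1) between the groups for each gene (points) with its 95% interval from limma (bars). The dashed lines mark the median over all genes tested (-0.0056) and over the 34 genes (0.30), and 10 of the 34 intervals include 0.

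Among the abundant proteins that organize the nucleolus and its rRNA synthesis, *Npm1* (nucleophosmin, chromosome 11 of GRCm38 from 33152287 to 33163206) had the highest level, at 423 and 447 FPKM under Cont-IMQ against 532 and 588 FPKM under 7KC-IMQ. Here and in what follows, values are given in the order of replicates 1 and 2. The difference was 0.36 on the log2 scale (standard error 0.096, adjusted p = 0.356 in limma). *Ncl* (nucleolin, a binder of precursor rRNA, chromosome 1 from 86344719 to 86359400) had 73.2 and 72.9 FPKM under Cont-IMQ against 94.4 and 99.6 FPKM under 7KC-IMQ. Its Cont-IMQ libraries were nearly equal, and the difference of 0.40 (standard error 0.070, adjusted p = 0.352 in limma) shared the lowest adjusted p-value of the 34 genes with *Nop58*. *Nolc1*, which encodes a chaperone that ties snoRNPs to the nucleolus, had 25.5 and 27.8 FPKM against 35.1 and 37.5 FPKM, the largest difference of these nucleolar genes (0.43). *Ddx21*, an RNA helicase that acts with RNA polymerase I and in rRNA processing, had 41.9 and 44.3 FPKM against 54.0 and 59.4 FPKM. *Mybbp1a*, which encodes a Myb-binding protein of the nucleolus that acts in rRNA synthesis and processing, had 40.3 and 42.8 FPKM against 51.7 and 53.5 FPKM. In each of these 5 genes the mean was higher by at least 26.6% and both groups were well apart.

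Both genes of the catalytic core of RNA polymerase I were higher without overlap (23.9% of all genes tested). *Polr1a*, the gene of the largest subunit (chromosome 6 from 71909053 to 71984935), had 7.97 and 7.71 FPKM under Cont-IMQ against 9.74 and 8.99 FPKM under 7KC-IMQ, a mean higher by 19.5%. *Polr1b*, the gene of the second largest subunit, had 9.34 and 9.44 FPKM against 10.8 and 11.2 FPKM, a mean higher by 16.9%. The difference was 0.23 in *Polr1a* (95% interval -0.018 to 0.48) and 0.20 in *Polr1b* (95% interval -0.019 to 0.43), and both had an unadjusted p-value over 0.05. These intervals overlap those of the 5 genes above, and a difference between them was not tested.

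The box C/D snoRNPs, which methylate rRNA, share the proteins fibrillarin (*Fbl*), *Nop56* and *Nop58*. *Fbl*, the methyltransferase itself (chromosome 7 from 28169710 to 28179269), had 104 and 115 FPKM under Cont-IMQ against 134 and 148 FPKM under 7KC-IMQ. *Nop58* (chromosome 1 from 59684971 to 59719044) had 58.1 and 63.3 FPKM against 80.7 and 82.7 FPKM, with a difference of 0.42 (standard error 0.078, adjusted p = 0.352 in limma). *Nop56* had 47.8 and 61.7 FPKM against 67.6 and 74.9 FPKM. The Cont-IMQ libraries of *Nop56* were the farther apart, and its interval was correspondingly wide (0.0024 to 0.77). The median difference of the 3 genes was 0.38, the highest of the role groups.

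The box H/ACA snoRNPs convert uridine to pseudouridine and are built on 4 proteins. *Dkc1*, the pseudouridine synthase dyskerin (chromosome X from 75095854 to 75109777), had 22.1 and 23.0 FPKM under Cont-IMQ against 26.3 and 27.1 FPKM under 7KC-IMQ. *Nhp2* was the most abundant of the 4, with 113 and 116 FPKM against 139 and 145 FPKM, and *Gar1* had 25.3 and 24.3 FPKM against 29.8 and 32.6 FPKM. *Nop10*, the smallest of these proteins, came closest to overlap, since the 66.7 FPKM of Cont-IMQ replicate 2 lay just under the 69.1 FPKM of 7KC-IMQ replicate 1. The median difference of this group was 0.27. Of its 4 genes, 3 had an unadjusted limma p-value under 0.05 (7.50% of all genes in the upward direction), the exception being *Nop10*.

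Of the 8 genes that act on the small subunit, all were higher without overlap (23.9% of all genes tested). An unadjusted limma p-value under 0.05 (7.50% of all genes in the upward direction) was reached by 4, namely *Rrp9*, *Noc4l*, *Nop14* and *Wdr43*. *Rrp9*, which binds the U3 snoRNA, had 22.6 and 23.3 FPKM under Cont-IMQ against 28.4 and 32.2 FPKM under 7KC-IMQ, the largest difference of the 8 (0.38). *Wdr43*, a subunit of the complex that assembles on the new precursor, had 28.6 and 29.1 FPKM against 34.6 and 34.6 FPKM, the most even replicates. The smallest difference was in *Utp20* (0.15), a large scaffold protein, with 6.29 and 5.60 FPKM against 6.31 and 7.09 FPKM, so that its groups were separated by only 0.267%. *Utp15* had 7.94 and 10.3 FPKM against 11.0 and 11.1 FPKM, and its separation also rested on a narrow gap. The remaining genes were *Nop14* (18.5 to 19.7 FPKM against 22.2 to 24.6 FPKM), *Noc4l* (18.4 to 20.3 FPKM against 22.8 to 25.1 FPKM), *Bysl* (13.5 to 14.9 FPKM against 16.3 to 17.8 FPKM) and *Rrp12* (9.08 to 9.67 FPKM against 10.6 to 10.9 FPKM).

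The 11 genes that act on the large subunit were all higher without overlap (23.9% of all genes tested). Of them, 9 had an unadjusted limma p-value under 0.05 (7.50% of all genes in the upward direction). *Nop2*, an rRNA methyltransferase that is known as a marker of proliferating cells (chromosome 6 from 125131909 to 125144753), had 21.5 and 24.3 FPKM under Cont-IMQ against 30.3 and 34.4 FPKM under 7KC-IMQ. Its difference of 0.48 (standard error 0.11, adjusted p = 0.354 in limma) was the largest of the 34 genes. *Pes1*, *Bop1* and *Wdr12* encode the subunits of 1 complex, PeBoW, which is needed to process the rRNA of the large subunit, but they did not differ by the same amount. *Bop1* had 31.2 and 34.8 FPKM against 43.3 and 44.3 FPKM (difference 0.40), and *Wdr12* had 9.78 and 10.6 FPKM against 12.1 and 13.3 FPKM (difference 0.29). *Pes1* had 37.1 and 31.98 FPKM against 38.4 and 39.3 FPKM (difference 0.17, 95% interval -0.088 to 0.43). The intervals of the 3 genes overlapped, and a difference between them was not tested.

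Of the other genes of the large subunit, *Rrs1* had 26.9 and 30.6 FPKM under Cont-IMQ against 35.9 and 39.4 FPKM under 7KC-IMQ, and *Ftsj3*, which encodes an rRNA methyltransferase, had 38.9 and 38.8 FPKM against 48.5 and 49.9 FPKM. *Ppan* had 22.7 and 29.6 FPKM against 31.3 and 34.7 FPKM, and the spread of its Cont-IMQ libraries left its interval including 0 (-0.055 to 0.72). *Gnl3* (nucleostemin, a GTPase abundant in stem and progenitor cells) had 42.8 and 46.3 FPKM against 50.3 and 56.9 FPKM. *Noc2l*, *Nop16* and *Wdr74* were higher by 22.2%, 21.2% and 18.6% in mean FPKM, with groups well apart.

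Sequence shared with other genes limits some of these values. Of the 75-base windows of its transcripts, 18.1% in *Npm1*, 17.7% in *Fbl*, 18.3% in *Noc2l*, 14.4% in *Nop56* and 12.4% in *Pes1* also occur in another annotated gene (GENCODE M21), so that reads of these genes could be split or exchanged, and their values are less certain. In the other genes of the list the share was at most 7.59% (*Bysl*). The only genes that share windows with *Noc2l* and *Bysl* are *Samd11* and *Ccnd3*, whose exons overlap theirs on the opposite strand. Whether the strand was used in counting is not given in the sources used here. *Ncl*, *Nop56*, *Nop58*, *Ppan* and *Gnl3* overlap annotated small RNA genes on the same strand.

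The libraries kept nearly the same order from gene to gene. The value of 7KC-IMQ replicate 2 was the highest of the 4 in 32 of the 34 genes, compared with 27.8% of all genes tested. Cont-IMQ replicate 1 was the lowest in 26, compared with 27.4% of all genes tested. The exceptions at the top were *Polr1a* and *Myc*, which were highest in 7KC-IMQ replicate 1. The mean log2(FPKM + 1) of the 34 genes was 4.94 and 5.01 under Cont-IMQ against 5.24 and 5.31 under 7KC-IMQ, so that the step between the groups was larger than the step within either. The sum of all FPKM values was also highest in 7KC-IMQ replicate 2 (702218, against 630272 to 654666 in the other libraries). With each library rescaled to the same sum, 29 of the 34 genes remained separated, compared with 15.0% of all genes, and the median difference was 0.22, when the median over all genes was -0.067. The 5 genes that overlapped under this scaling were *Nop10*, *Pes1*, *Utp15*, *Utp20* and *Myc*. Scaling by the median ratio over genes instead gave factors between 0.9995 and 1.0009, which left the values nearly unchanged. Without 7KC-IMQ replicate 2, all 34 genes were higher without overlap and the median difference was 0.26, compared with 33.2% of all genes separated in that setting, but only 4 genes were higher at an unadjusted p-value under 0.05 (2.13% of all genes). Without 7KC-IMQ replicate 1, that count was 15 (4.29% of all genes). Without Cont-IMQ replicate 2, the library with high hair follicle markers, 33 genes were separated, compared with 38.9% of all genes, and the median difference was 0.32. With each library left out in turn, Cont-IMQ replicate 1 included, the median difference was 0.25 to 0.35.

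**Figure D3:**
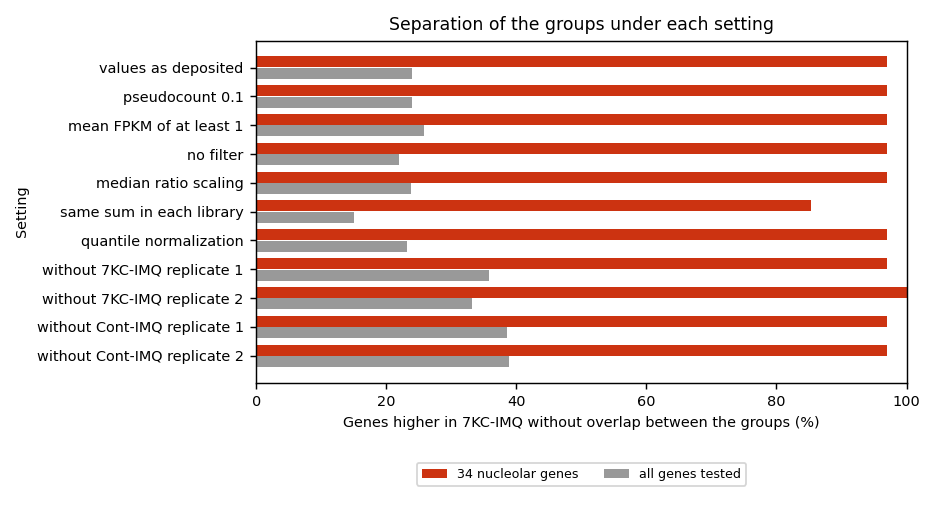
Share of genes (%) that were higher in the 7KC-IMQ group without overlap, for the 34 genes and for all genes tested, with the values as deposited and under each other setting. With 1 library left out, 1 library is set against 2, so the grey bars are longer, and rescaling to the same sum gave the lowest share for the 34 genes (29 of 34).

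To describe the wider pathway, another 93 genes of ribosome biogenesis were listed by hand. They were listed with earlier results of these data known, so they are not an independent check of the 34 genes. Of these, 76 were higher and 4 lower without overlap (23.9% and 22.9% of all genes tested). At an unadjusted limma p-value under 0.05, 33 were higher and 0 lower (7.50% and 5.47% of all genes tested). Their median difference was 0.20, lower than the 0.30 of the 34 genes. The largest differences were in *Rpf2*, *Rrp15*, *Rrp1b* and *Npm3*. *Rpf2*, which acts in large subunit assembly together with *Rrs1*, had 14.9 and 17.7 FPKM under Cont-IMQ against 21.7 and 24.7 FPKM under 7KC-IMQ. *Npm3*, a relative of *Npm1*, had 75.9 and 81.9 FPKM against 96.8 and 112 FPKM. None of the 93 genes passed the adjusted threshold in limma, where the lowest adjusted p-value was 0.352.

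The further subunits and factors of RNA polymerase I (14 genes) had a median difference of 0.086, with 7 higher and 0 lower without overlap (23.9% and 22.9% of all genes tested). The values of *Polr1e* (4.23 and 4.31 FPKM against 5.58 and 5.72 FPKM) and *Tcof1* (13.3 and 15.5 FPKM against 17.7 and 18.5 FPKM), which encodes the nucleolar protein treacle, were the farthest apart. The products that these factors assemble, the 79 cytosolic ribosomal protein genes, had a median difference of 0.051, with 30 higher and 6 lower without overlap, 0 with an unadjusted limma p-value under 0.05, and this median changed sign with the scaling (-0.031 after rescaling to the same sum and -0.061 after quantile normalization). Many of these genes have processed pseudogenes that share their reads, and *Rpl26* was listed at 0 in Cont-IMQ replicate 2, which can be a failed estimate.

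Genes of nucleotide, serine and folate metabolism, which supply the building blocks of rRNA and DNA, were mostly higher too. Of these, 22 of 25 were higher and 1 lower without overlap (23.9% and 22.9% of all genes tested), with a median difference of 0.28. *Shmt2*, a mitochondrial enzyme of serine and folate metabolism, had 40.8 and 41.4 FPKM under Cont-IMQ against 62.1 and 66.8 FPKM under 7KC-IMQ (difference 0.64, standard error 0.075, adjusted p = 0.331 in limma). *Mthfd2*, which acts after it, had 11.9 and 13.0 FPKM against 16.8 and 22.9 FPKM. The DNA replication genes were also mostly higher, with 27 of 29 higher and 0 lower without overlap and a median difference of 0.30. *Mcm3*, a subunit of the replicative helicase, had 17.1 and 16.3 FPKM against 23.1 and 24.6 FPKM. The nucleolar genes and the genes of DNA synthesis thus were higher in the same libraries, and the part of cell number or of dividing cells in the nucleolar values was not tested.

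**Figure D4:**
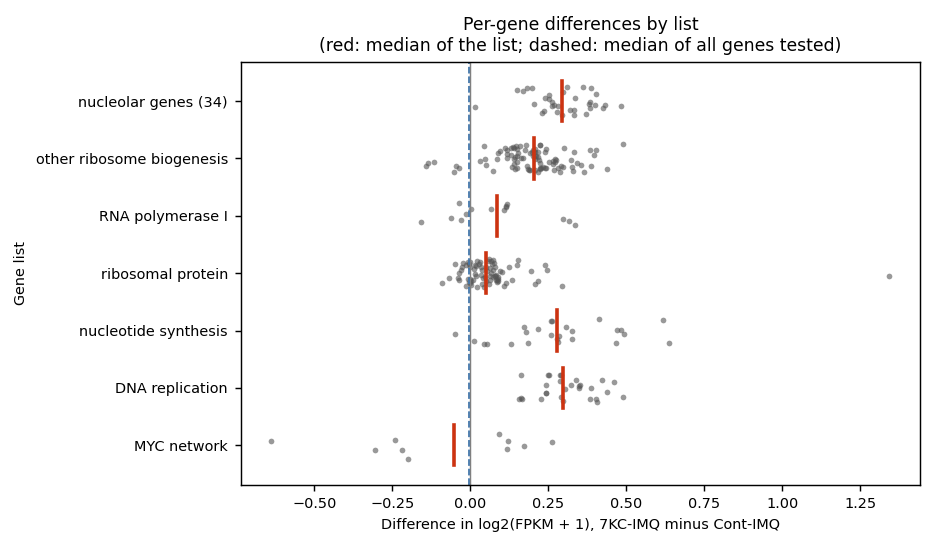
Difference in log2(FPKM + 1) of each gene (points) in the 34 nucleolar genes and in 6 other lists, with the median of each list (red) and the median over all genes tested (dashed, -0.0056). The medians are 0.30 for the nucleolar genes, 0.20 for other ribosome biogenesis genes, 0.086 for RNA polymerase I, 0.051 for ribosomal proteins, 0.28 for nucleotide synthesis, 0.30 for DNA replication and -0.053 for the MYC network. The ribosomal protein median was below 0 under rescaling to the same sum and under quantile normalization, and the isolated ribosomal protein gene is *Rpl26*.

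*Myc* (chromosome 15 from 61985391 to 61990374) did not differ in the same way. It had 64.8 and 60.9 FPKM under Cont-IMQ against 69.7 and 57.9 FPKM under 7KC-IMQ, so that 7KC-IMQ replicate 2, the highest library in nearly all of the nucleolar genes, was the lowest for *Myc*. The difference was 0.016 (95% interval -0.28 to 0.31, adjusted p = 0.968 in limma), an interval that includes both 0 and the median of the 34 genes, and its sign changed with the scaling (-0.065 after rescaling to the same sum and -0.049 after quantile normalization). MYC binds DNA as a dimer with MAX, and the proteins of the MXD family, MNT and MGA also pair with MAX and are known to repress the same sites. Of 10 such genes and relatives of *Myc*, 1 was higher and 5 lower without overlap, compared with 23.9% and 22.9% of all genes tested. *Max* had 48.7 and 47.4 FPKM against 52.9 and 51.8 FPKM. *Mycl* had 12.6 and 14.3 FPKM against 9.02 and 7.55 FPKM (difference -0.64, standard error 0.12, adjusted p = 0.352 in limma).

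The 4 others that were lower without overlap encode partners of MAX that are known as repressors. *Mxi1* had 19.4 and 19.1 FPKM under Cont-IMQ against 16.2 and 17.1 FPKM under 7KC-IMQ. *Mxd4* had 35.6 and 34.9 FPKM against 31.9 and 25.1 FPKM. *Mnt* had 8.17 and 8.88 FPKM against 6.94 and 7.18 FPKM, and *Mga* had 5.30 and 5.69 FPKM against 4.54 and 4.62 FPKM. The differences of these 4 genes lay between -0.31 and -0.20, and each had an unadjusted p-value over 0.05 in limma. *Mxd1*, *Mxd3*, *Mlx* and *Mycn* overlapped and were higher in the mean, so the genes of the MXD family did not all differ in 1 direction. *Mxd1* had 29.8 and 23.1 FPKM against 28.1 and 35.7 FPKM (difference 0.26). *Mxd3* had 5.72 and 7.82 FPKM against 7.91 and 6.83 FPKM (difference 0.12), and *Mycn* had 1.47 and 4.66 FPKM against 4.31 and 2.34 FPKM.

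**Figure D5:**
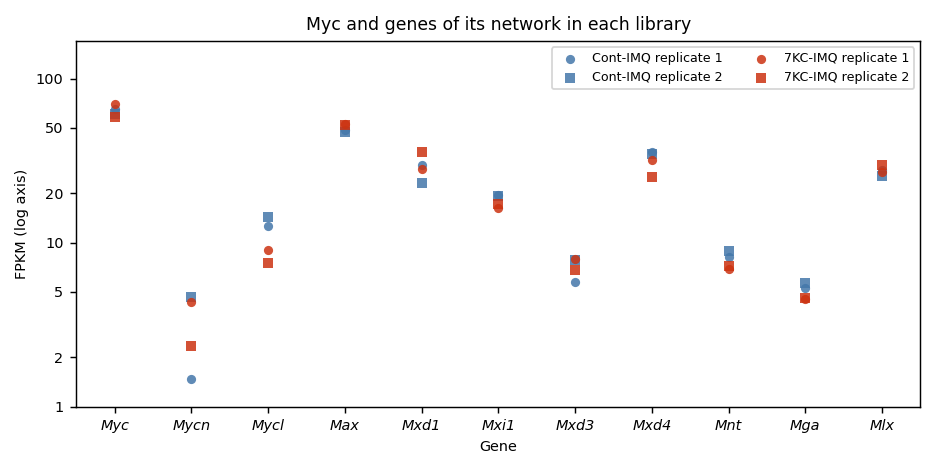
FPKM (log axis) of *Myc* and 10 genes of its network in the 4 libraries (points). The 7KC-IMQ libraries lie below both Cont-IMQ libraries for *Mycl*, *Mxi1*, *Mxd4*, *Mnt* and *Mga*, above them for *Max*, and overlap with them for the other genes.

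Because MYC and MAX bind the E-box CACGTG, the promoters of the 34 genes were searched for it. Promoter windows (250 bases before and 50 after the start site, RefSeq, GRCm38.p6) were matched for 28 of the 34 genes, and none was matched for *Npm1*, *Fbl*, *Bop1*, *Rrp12*, *Rrs1* and *Myc*. Of the 28 genes, 5 held CACGTG, which reads the same on both strands, a share of 17.9%. Over the 11913 tested genes with a window the share was 11.0%, and over all 32851 windows it was 7.15%. The sites are shown with up to 12 bases on either side, with the motif in capitals and written 5′ to 3′ on the strand of the gene.
Nop2: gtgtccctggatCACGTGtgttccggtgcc
Pes1: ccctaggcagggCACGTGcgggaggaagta
Wdr43: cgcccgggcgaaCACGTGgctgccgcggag
Utp20: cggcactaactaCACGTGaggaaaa
Mybbp1a: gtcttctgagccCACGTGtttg
The site of *Nop2* (chr6:125131811-125131840, plus strand) begins at position -60 from the start site, whereas that of *Pes1* (chr11:3963965-3963994, plus strand) begins at position 3 and that of *Wdr43* (chr17:71616220-71616249, plus strand) at position 18 of the transcript. The sites of *Utp20* (chr10:88826765-88826789, minus strand) and *Mybbp1a* (chr11:72441355-72441376, plus strand) also lie within the first bases of the transcript, at positions 38 and 41, near the end of the window. The 5 genes include the largest difference of the 34 (*Nop2*, 0.48) and, next to *Myc*, the 2 smallest (*Utp20*, 0.15, and *Pes1*, 0.17).

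Of 2 other E-box sequences, each searched on both strands, CACGCG was found in 11 of the 28 genes (39.3%, against 18.05% of tested genes). The other, CATGTG, was found in 7 of the 28 genes, against 11.2% of tested genes. The 11 genes with CACGCG were *Bysl*, *Ddx21*, *Mybbp1a*, *Nhp2*, *Noc2l*, *Nolc1*, *Nop10*, *Nop16*, *Pes1*, *Ppan* and *Utp15*. The GC content of the windows was close to that of all tested genes (medians 59.3% and 59.7%). These matches describe letters of the promoter windows, and binding was not measured.

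Other cell types were followed by marker lists. Of the 8 neutrophil markers tested, 7 were higher without overlap, compared with 23.9% of all genes tested. With the filter set at a mean of 1 FPKM the count was 5, compared with 25.9% of all genes. The summed level of the list was 2121 to 2579 FPKM in the Cont-IMQ group and 7223 to 13817 FPKM in the 7KC-IMQ group. *S100a8* and *S100a9*, which keratinocytes also express, made up most of that sum. *Cxcr2* had 13.4 and 15.0 FPKM against 20.2 and 23.0 FPKM. *Csf3r* differed little, at 3.80 and 3.64 FPKM against 3.93 and 4.50 FPKM, and *Retnlg* was low, at 0.821 and 1.66 FPKM against 3.38 and 2.00 FPKM. *Ngp*, *Ltf* and *Camp* were listed at 0 in at least 1 library, and *Camp* was nevertheless among the 7 counted as higher. Of the 11 epidermis markers, 2 were higher and 2 lower without overlap. Such counts were 1 and 1 of 7 in dermis, 0 and 0 of 17 in hair follicle, 2 and 2 of 10 in skeletal muscle, and 2 and 0 of 7 in fat. *Krt15* had 216 and 172 FPKM against 123 and 96.9 FPKM. *Myh4* had 125 and 62.9 FPKM against 427 and 329 FPKM, while *Myh1* was lower. *Lep* had 1.64 and 1.16 FPKM against 9.75 and 3.70 FPKM. The summed level of each of these lists overlapped between the groups, although sums rest on the most abundant genes. The summed level of 8 macrophage markers overlapped too (737 and 919 FPKM against 713 and 784 FPKM). The summed levels of the 7 T cell markers found were at 21.01 and 17.8 FPKM under Cont-IMQ and at 17.3 and 13.8 FPKM under 7KC-IMQ, and 3 of the 6 tested were higher in the mean. Without overlap, *Cd3d* was higher, and 2 were lower, *Cd3e* and *Cd3g*. *Cd3g*, the most abundant, had 10.1 and 9.61 FPKM against 7.62 and 5.59 FPKM. The part of these cell types in the nucleolar values was not tested.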

How the data were processed

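RNA of dorsal skin was sequenced as 75-base single reads from stranded mRNA libraries. The authors aligned the reads to mm10 and deposited 1 file of FPKM values per library. The submitters' processing notes name TopHat2 2.1.1, Bowtie2 2.2.8, SAMtools 0.1.18 and Cuffdiff 2.2.1, and the study's methods give other versions of some of these tools. No read counts were used, so depth was estimated from the spacing of low FPKM values. At the estimated depth, 71.1% to 75.3% of the low values used came within 0.1 of a whole read, where the width of that window alone gives 20%, so the depths are approximate.

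From the deposited FPKM values, log2(FPKM + 1) was computed for genes whose mean reached 0.1 FPKM, and was compared between the groups with limma 3.58.1 in R 4.3.3 (moderated test with variance trend, two-sided, Benjamini-Hochberg adjustment over all 15896 genes), without a replicate block. The fitting script was tested on simulated data. All 34 genes are named, and of each other list at most 4 genes whose mean reached 1 FPKM, with no overlap and the largest differences, besides all genes of the MYC network and defining markers. Genes listed at 0 in a library (*Rpl26*, *Ngp*, *Ltf* and *Camp*) are named for that reason. The genes and lists were chosen with earlier results of these data known. The labels do not say whether replicate numbers pair libraries across the groups, so the libraries were not paired, and the deviations of same-numbered libraries correlated weakly (Pearson r = 0.065 across genes, which are not independent replicates). Alternatives changed the pseudocount, filter, scaling, variance trend, replicate block and libraries.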

Additional observations from a re-analysis of the deposited data

How the results depend on the processing

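Of 408 pairs of a nucleolar gene and an alternative, 404 kept their direction, and the other 4 were all *Myc* (-0.065 with the same sum in each library, -0.049 with quantile normalization, -0.12 without 7KC-IMQ replicate 1 and -0.028 without Cont-IMQ replicate 2, where leaving out each library gave -0.12 to 0.15). Rescaling to the same sum lowered the nucleolar genes at an unadjusted p-value under 0.05 from 24 to 14 and their median difference to 0.22, and turned the split over all genes from 1192 higher and 869 lower to 638 higher and 1230 lower. The median of the ribosomal protein genes was -0.031 under that scaling and -0.061 under quantile normalization. Leaving out 1 library gave 4 to 26 nucleolar genes at that threshold (4 without 7KC-IMQ replicate 2, 15 without 7KC-IMQ replicate 1, 17 without Cont-IMQ replicate 1 and 26 without Cont-IMQ replicate 2, where 2.13%, 4.29%, 7.52% and 7.30% of all genes were higher at it) and a median difference of 0.25 to 0.35, where the lone library is assumed to vary like the other group. With the replicate block the count was 23, and the block changed no call at the adjusted threshold among the nucleolar genes. None of the 34 genes passed that threshold under any alternative, while over all genes 1 passed with the settings reported, 2 with a pseudocount of 0.1, 11 without Cont-IMQ replicate 1 and 5 without Cont-IMQ replicate 2. With 2 libraries a group and no read counts, small differences of single genes were at the limit of what could be detected.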
